A study of Rattus norvegicus with 256 samples.

Results

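Collagens are the main fibrous proteins of the extracellular matrix, and each molecule is a triple helix of 3 chains that may come from 1 gene or several. The 58 probesets examined here are those whose single gene symbol on the RAE230_2 array names a collagen chain, and they cover 41 genes of the 31042 probesets measured. The rule reads the symbol and no expression value. Fibrillar chains build the tensile fibres of skin, tendon and bone, basement membrane chains form the sheet under epithelia and around vessels and muscle fibres, and fibril-associated chains sit on the surface of the fibres. Other chains form beaded filaments, hexagonal networks or anchoring fibrils, and transmembrane collagens span the cell surface. By these classes the members comprised 19 fibrillar, 11 basement membrane, 12 fibril-associated, 12 beaded, network and anchoring, and 4 transmembrane probesets.

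Expression was measured in 31 organs of untreated Han Wistar-derived rats (AlpkHsdBrlHan:WIST), with 1 organ of 1 animal on each array. Of the arrays, 234 held 26 organs common to both sexes, 115 from males and 119 from females, and 22 held 5 organs of 1 sex: the testes, epididymis and prostate of males and the ovary and uterus of females. Groups of 1 organ and sex held 2 to 5 arrays, and the sources used here give no age. Because whole organs were homogenised, fewer cells of a type and less RNA per cell cannot be told apart. Values are log2 GC-RMA signals, so a difference of 1 is a 2-fold difference, and a group or organ mean above the study's expression threshold, near 6.7 on this scale, counts as expressed. Array medians lay between 3.86 and 4.45, and the defining marker of an organ was highest in that organ for 17 of 17 organs with a measured marker. In 4 of 234 arrays, male 3 of the aorta, male 5 of the heart, male 5 of the bone marrow and female 2 of the bone marrow, Xist and the Y-linked gene Eif2s3y went against the sex in the label. These arrays were kept under their labels, and values without them are given where a result rests on them.

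Most collagen chains were measurable in some organ, and their reach over the body differed widely. A mean above the threshold in at least 1 group was reached by 45 of 58 member probesets (77.6%), against 64.7% of all probesets, and by 33 of 41 genes. Col3a1 alone was above the threshold in all 31 organs, and 20 of 58 member probesets were above it in 20 organs or more. Of all 31042 probesets, 7956 were above it in 20 organs or more. By share of probesets, basement membrane chains were the widest class in reach, with 7 of 11 above the threshold in 20 organs or more. The other classes had 9 of 19 fibrillar, 3 of 12 beaded, network and anchoring, 1 of 12 fibril-associated and 0 of 4 transmembrane probesets. The 7 basement membrane probesets belonged to Col4a1, Col4a2, Col4a5, Col15a1 and Col18a1. The 9 fibrillar probesets belonged to Col1a1, Col1a2, Col3a1, Col5a1 and Col5a2. After Col3a1, the widest single chains were Col1a1, Col1a2, Col5a2 and Col4a1, each with a probeset above the threshold in 30 organs. In 8 genes (Col2a1, Col4a4, Col9a1, Col9a2, Col10a1, Col19a1, Col20a1 and Col27a1) no probeset passed the threshold in the mean of any organ.

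**Figure D1:**
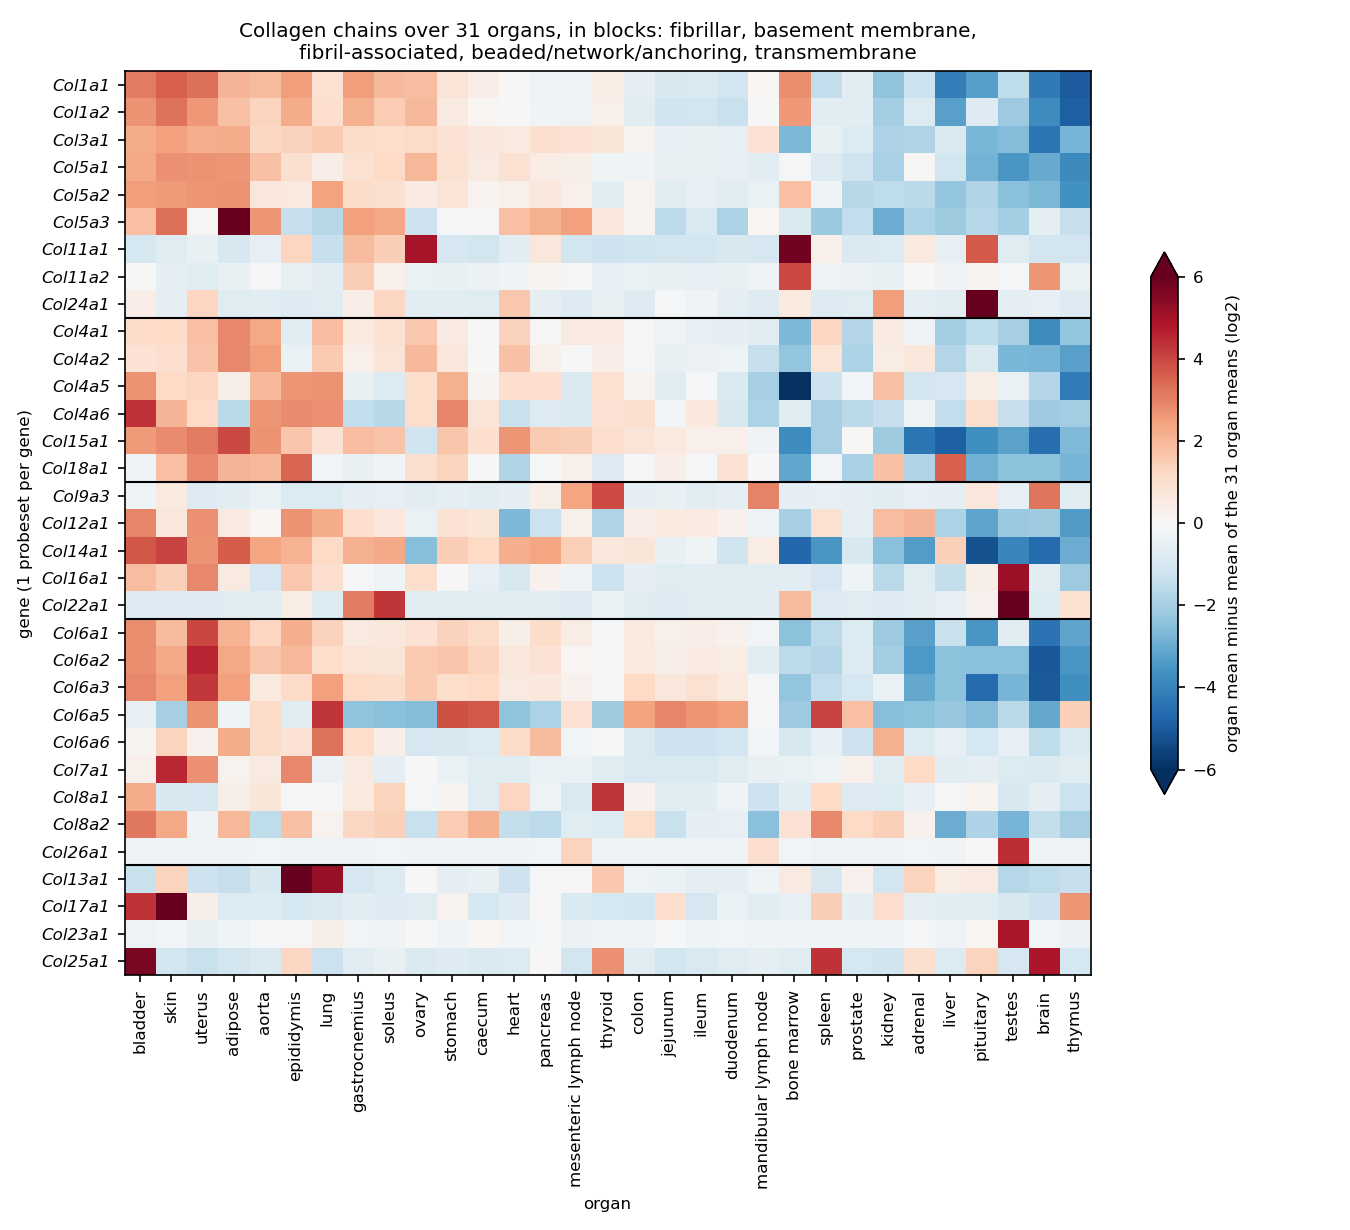
Organ means of the 33 collagen genes that were expressed in at least 1 organ, 1 probeset per gene, each row set relative to its own mean over 31 organs (colour, log2 units). Rows are grouped by class and organs are ordered by the number of chains called higher less those called lower. Col1a1 to Col5a2 and Col6a1 to Col6a3 share their high organs at the left and their low organs at the right, while chains such as Col11a1, Col24a1, Col13a1 and Col23a1 show 1 to 3 dark cells.

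To place each chain, every organ was compared with the unweighted mean of the other 30 organs in 1 limma fit, and a probeset was called higher at a Benjamini-Hochberg adjusted p under 0.05, a difference above 1 and an organ mean above the threshold. In that fit each probeset has 1 spread shared by all groups, so the SE and adjusted p do not measure the spread within the named organ. Skin and bladder each had 29 of 58 collagen probesets called higher, where 7.13% and 7.56% of all probesets were. The uterus followed with 27 (8.16% of all probesets), adipose tissue with 24 (7.28%), the aorta with 23 (6.77%), the epididymis with 22 (8.33%) and the lung with 20 (8.52%). None of these 7 organs had a collagen probeset called lower. Over all organs, 45 collagen probesets (77.6%) were called higher in at least 1, against 60.2% of all probesets. The thymus and the brain each had 21 collagen probesets called lower (5.39% and 8.35% of all probesets), the testes had 19 (13.6%), and the liver and pituitary had 18 each (5.93% and 5.87%). The median difference over the 58 probesets was 1.53 in the bladder and -1.42 in the thymus, where the medians over all probesets were -0.10 and -0.07. Without the 4 arrays of doubtful label the aorta still had 23 probesets called higher.

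**Figure D2:**
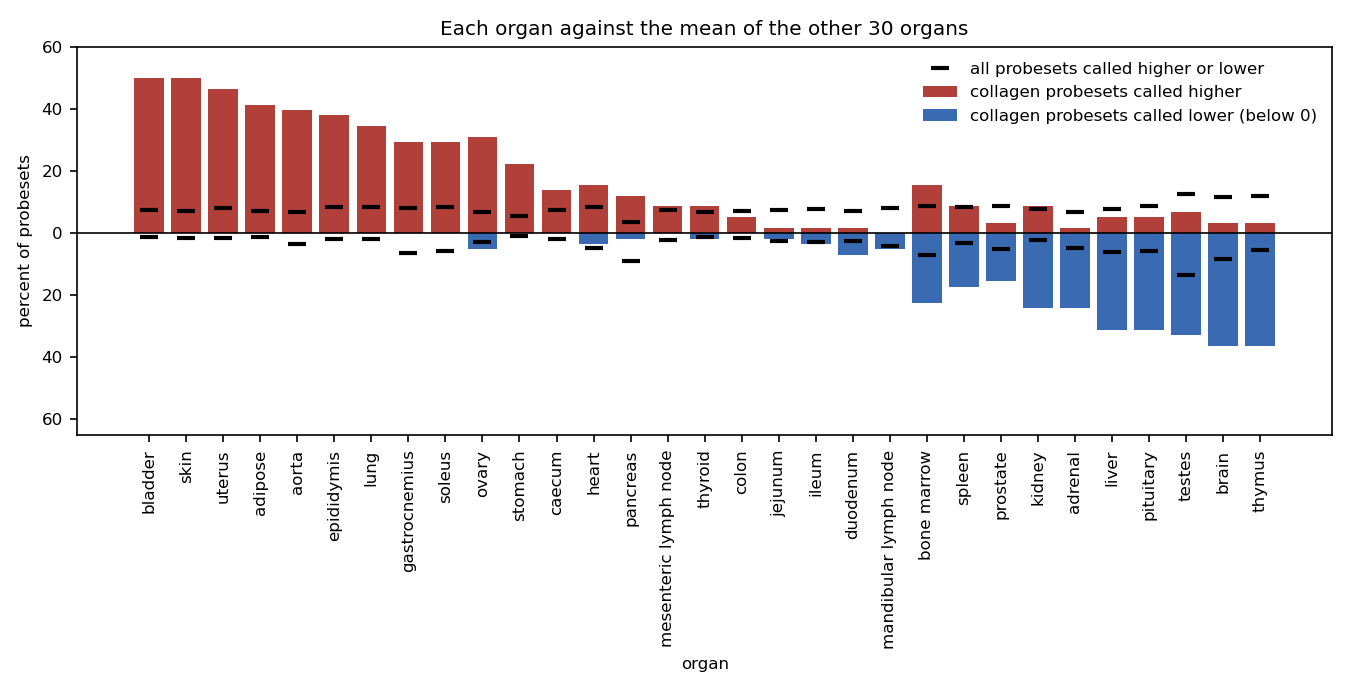
Percent of the 58 collagen probesets called higher (red, above 0) or lower (blue, below 0) in each organ than in the mean of the other 30 organs, with black ticks for all 31042 probesets. Skin and bladder, with 29 probesets each, stand well above their ticks of 7.13% and 7.56%, and the thymus and brain, with 21 called lower, stand beyond theirs of 5.39% and 8.35%.

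The chains of type I and type III collagen, which make up most fibres of skin and vessel walls, were highest in skin and lowest in the thymus or brain. Col1a1 ranged over 14.50, 14.89 and 15.07 in skin (lowest, median and highest of 9 arrays), against a mean of 11.13 over the other organs, a difference of 3.73 ± 0.22 (SE). In the thymus its 8 arrays lay at 5.72, 6.33 and 7.05, which was 5.14 below the other organs, and no thymus array came near a skin array. Col1a2, the second chain of the type I molecule, lay at 14.25, 14.66 and 14.94 in skin and at 6.12, 6.47 and 6.88 in the thymus. Over the 31 organ means Col1a1 and Col1a2 correlated at r = 0.97, a description over organs that come from the same animals and share 1 normalization. In the pituitary Col1a1 was called lower (7.95 against 11.36 in the other organs), and the probesets of Col1a2 disagreed: 1370155_at averaged 10.57 against 11.39 and was not called, while 1387854_at averaged 8.42 against 10.89 and was called lower. Col3a1 lay at 14.17, 14.38 and 14.58 in skin (difference 2.56 ± 0.14) and at 6.58, 7.19 and 10.10 in the brain (difference -4.50 ± 0.13), so even its highest brain array was below every skin array. The 2 probesets of Col1a1 and the 2 of Col1a2 followed each other over organs at r = 0.99 and r = 0.98.

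The promoter of Col1a2 (RefSeq, GRCr8, chr4:33518307-33518606, plus strand, 250 bases before to 50 after the annotated start) is shown as that of a chain with a wide spread. Organ means of Col1a2 ran from 6.46 in the thymus to 14.6 in skin, a range of 8.17. Other chains ranged wider, among them Col6a2 (9.67) and Col1a1 (8.58). Capitals mark the CCAAT box in its reverse complement ATTGG at positions -221 to -217 and TATAAA at -170 to -165, counted with the annotated start as 0.
Col1a2: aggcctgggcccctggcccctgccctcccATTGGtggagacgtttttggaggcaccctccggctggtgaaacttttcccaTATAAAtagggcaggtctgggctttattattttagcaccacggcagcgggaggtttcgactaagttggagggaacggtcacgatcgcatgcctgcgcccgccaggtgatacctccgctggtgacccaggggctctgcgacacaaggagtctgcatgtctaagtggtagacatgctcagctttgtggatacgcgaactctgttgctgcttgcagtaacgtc
CCAAT on either strand is found in 37.5% of the 33469 promoter windows of this length in the rat and TATAAA in 14.2%, so both are common, and a match is a description and not a site shown to be used.

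Bone marrow split the collagens by type. Its 9 fibrillar probesets called higher belonged to Col1a1, Col1a2, Col5a2, Col11a1 and Col11a2 (9 of 58 members in all, against 8.87% of all probesets), while Col3a1 and 7 of 11 basement membrane probesets were called lower (13 of 58 members, against 7.12%). Col1a1 lay at 13.43, 13.87 and 14.82 in 9 bone marrow arrays, 2.86 ± 0.22 above the other organs. Col3a1 lay at 7.95, 9.27 and 10.34, which was 2.77 ± 0.14 below them. Col4a5, a basement membrane chain, was at 2.70, 2.83 and 2.91, a difference of -6.12. Bglap (osteocalcin) and Ibsp (bone sialoprotein), which mark bone-forming osteoblasts, averaged 12.8 and 11.2 in bone marrow, and no other organ had a mean above 2.63 for Bglap or 4.54 for Ibsp. Over the 4 measured osteoblast markers, 2 were above the threshold, and their mean level ranged over 7.16 to 10.3 in males and 6.97 to 9.18 in females. The part of bone-forming cells in the bone marrow values was not tested. Without the 2 bone marrow arrays of doubtful label the differences were 2.95 for Col1a1 and -2.71 for Col3a1, and the counts stayed at 9 and 13.

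Type V and XI chains assemble with the major fibres and limit their diameter. Col5a1 and Col5a2, the usual partners in type V collagen, correlated at r = 0.89 over organs and peaked together: Col5a1 averaged 10.6 in skin, 10.5 in the uterus and 10.5 in adipose tissue, and Col5a2 averaged 12.4, 12.5 and 12.5 in these organs. Col5a3, the third type V chain, was different in its range. It lay at 11.81, 12.39 and 13.61 in adipose tissue, 6.30 ± 0.19 above the other organs (limma adjusted p = 1.03e-80), and the next organ was skin with a mean of 9.70. Every adipose array was above every skin array, which ended at 9.99. Col11a1, best known from cartilage, had 3 high organs. It lay at 9.33, 9.90 and 12.60 in bone marrow (difference 6.0 ± 0.16, and 6.13 without the arrays of doubtful label), at 9.60, 9.63, 8.92, 8.86 and 9.38 in the 5 ovaries (5.11 ± 0.22) and at 7.39, 7.98 and 8.67 in the pituitary (3.78 ± 0.15). Its probeset 1392915_at followed this pattern at r = 0.95, while the probeset 1384931_at was not expressed in any group. Col11a2 was called higher in bone marrow alone, at 5.95, 8.02 and 10.01, and correlated with Col11a1 at r = 0.53. The mean level of the 6 measured chondrocyte markers in bone marrow was 2.74 to 2.96 in males and 2.80 to 3.18 in females.

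Cartilage is not among the organs. Col2a1, the chain of cartilage fibres, had its highest organ mean in the pituitary at 6.22, below the threshold, by its probeset 1387767_a_at. Its other probesets, 1371226_at and 1395280_at, were highest in the pancreas at 3.72 and 2.93. They followed 1387767_a_at over organs at r = 0.28 and 0.33. Acan, the main cartilage proteoglycan, averaged at most 2.89 in any organ. Outside the collagens, the expressed probeset most like 1387767_a_at over the 31 organ means was that of Tbx19, a transcription factor of pituitary corticotrophs (r = 0.86). The pituitary pattern of Col2a1 thus rests on 1 probeset. Of the other minor fibrillar chains, Col24a1 belonged to the pituitary, at 8.77, 9.08 and 10.23 (6.45 ± 0.17 above the other organs), and to the kidney of 1 sex, as described with the sexes. Col27a1 was highest in the pituitary too, at 3.35, 5.83 and 7.11, with a mean of 5.42 that did not pass the threshold.

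Basement membrane chains were highest in adipose tissue, vessel wall and several hollow organs. Of 11 probesets, 10 were called higher in the aorta, 9 in skin, 8 in the uterus and 7 each in adipose tissue and bladder, and 7 were called lower in brain, bone marrow and thymus. Col4a1 and Col4a2, which form the type IV molecule of nearly every basement membrane, led in adipose tissue: Col4a1 lay at 12.47, 12.72 and 13.20 (3.00 ± 0.12 above the other organs) and Col4a2 at 11.08, 11.64 and 12.69 (2.98 ± 0.17). The aorta came next for both, with Col4a1 at 11.64, 12.26 and 12.49 and a difference of 2.40, or 2.38 without its array of doubtful label. Col4a1 was lowest in the brain, at 4.99, 6.05 and 6.89, and Col4a2 was lowest in the thymus, at 5.33, 5.62 and 6.31. The levels of the 2 chains over 31 organ means correlated at r = 0.96. Of probesets outside the collagens, that of Hspg2 (perlecan, the heparan sulfate proteoglycan of basement membranes) was most like Col4a1, at r = 0.94, followed by Ehd2 at 0.91.

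Type IV genes lie in head-to-head pairs, and their promoter windows are shown because the levels of the pairs can be set beside their spacing. On chromosome 16 the annotated starts of Col4a1 (84885597 to 84996482, plus strand) and Col4a2 (84749672 to 84885520, minus strand) are 76 bases apart in GRCr8, and the 2 windows share 176 bases. On chromosome X the starts of Col4a5 (109907251 to 110111214) and Col4a6 (109554945 to 109905987) are 1263 bases apart. Each window is set on the start that RefSeq gives for it, which for the pair on chromosome X is not the outermost base of the gene. The windows are chr16:84885347-84885646 on the plus strand for Col4a1, chr16:84885471-84885770 on the minus strand for Col4a2, chrX:109907109-109907408 on the plus strand for Col4a5 and chrX:109905895-109906194 on the minus strand for Col4a6. Capitals mark CCAAT or its reverse complement ATTGG, and GGGCGG or its reverse complement CCGCCC.
Col4a1: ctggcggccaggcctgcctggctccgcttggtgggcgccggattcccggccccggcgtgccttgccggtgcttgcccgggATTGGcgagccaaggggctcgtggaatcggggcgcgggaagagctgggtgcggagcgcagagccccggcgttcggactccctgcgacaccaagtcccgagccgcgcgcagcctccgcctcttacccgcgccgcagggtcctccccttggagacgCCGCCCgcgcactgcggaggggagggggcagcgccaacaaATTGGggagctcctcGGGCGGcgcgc
Col4a2: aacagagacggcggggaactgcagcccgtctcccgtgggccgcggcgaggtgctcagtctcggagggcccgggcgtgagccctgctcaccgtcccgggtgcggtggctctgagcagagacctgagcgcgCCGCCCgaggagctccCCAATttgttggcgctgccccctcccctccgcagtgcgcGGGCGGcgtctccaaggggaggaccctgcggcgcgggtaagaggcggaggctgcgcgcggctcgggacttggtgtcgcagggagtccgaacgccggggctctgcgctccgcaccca
Col4a5: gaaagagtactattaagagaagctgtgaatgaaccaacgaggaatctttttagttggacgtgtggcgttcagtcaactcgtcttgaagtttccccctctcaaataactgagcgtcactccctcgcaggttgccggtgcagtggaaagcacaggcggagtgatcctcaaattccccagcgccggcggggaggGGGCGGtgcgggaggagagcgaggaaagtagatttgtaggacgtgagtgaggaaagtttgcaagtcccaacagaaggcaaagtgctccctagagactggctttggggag
Col4a6: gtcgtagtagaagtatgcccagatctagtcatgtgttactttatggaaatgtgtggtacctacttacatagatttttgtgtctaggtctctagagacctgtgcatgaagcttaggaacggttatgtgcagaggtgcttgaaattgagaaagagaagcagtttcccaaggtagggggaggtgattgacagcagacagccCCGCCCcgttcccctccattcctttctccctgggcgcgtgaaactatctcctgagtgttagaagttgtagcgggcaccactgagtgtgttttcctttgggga
GGGCGG on either strand stands in 33.1% of all windows and in each of these 4, and CCAAT stands in the windows of Col4a1 and Col4a2. No TATAAA is written in any of the 4. With the start counted as 0, the CCAAT at -105 to -101 of Col4a2 lies in the shared stretch and is the same bases as the ATTGG at 24 to 28 of Col4a1. Likewise the GGGCGG matches of Col4a2 at -66 to -61 and -121 to -116 are those of Col4a1 at -16 to -11 and 39 to 44. The windows of Col4a1 and Col4a2 are thus not separate cases for GGGCGG.

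Col4a5 and Col4a6 were less alike than the first pair, with r = 0.67 over organs. Both were highest in the bladder, Col4a5 at 11.04, 11.52 and 11.73 (2.81 ± 0.16) and Col4a6 at 9.14, 9.28 and 9.98 (4.47 ± 0.19). In the kidney they parted: Col4a5, a chain of the glomerular filter, was called higher at 10.20, 10.49 and 10.77 (1.83 ± 0.15), while Col4a6 lay at 3.15, 3.83 and 3.96, below the threshold. In bone marrow Col4a5 was far below the other organs, as given above. Col4a4, which joins Col4a5 in the glomerular filter, lay at 5.14, 6.09 and 6.49 in 10 kidneys against a mean of 2.09 in the other organs. That difference of 3.86 ± 0.05 was the largest in any organ for this probeset (limma adjusted p = 1.43e-144), but the level stayed below the threshold in every kidney. This SE comes from the spread shared by all groups, most of them near the lower end, and not from the kidneys. In the direct comparison of lung with kidney the SE was 0.23. Col4a3, the partner chain of Col4a4 and Col4a5, was not among the matched symbols and is not analysed here. Nphs1 (nephrin), a marker of the podocytes that make this filter, averaged 7.01 in kidney.

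**Figure D3:**
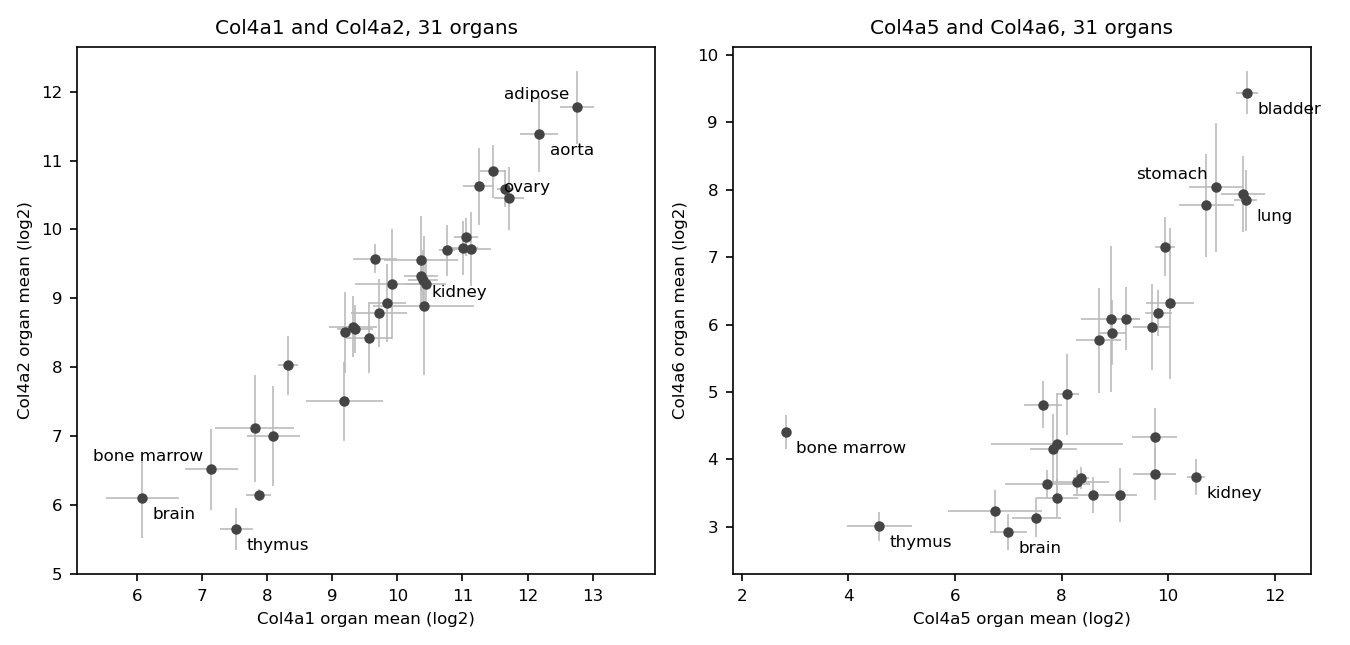
Organ means of Col4a1 against Col4a2 (left) and of Col4a5 against Col4a6 (right) on log2 scales, 1 point per organ for 31 organs, bars SD over arrays. The first pair lies along 1 line (r = 0.96), while in the second (r = 0.67) the kidney joins a high Col4a5 mean (10.5) to a low Col4a6 mean (3.73).

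Col15a1 and Col18a1, whose ends release small fragments that restrain vessel growth, went opposite ways in the liver. Col18a1 lay at 10.33, 10.56 and 11.06 in 9 livers, 3.68 ± 0.18 above the other organs, whereas Col15a1 lay at 2.38, 3.05 and 4.20, a difference of -5.04 ± 0.15. Col18a1 was as high in the epididymis, at 10.49, 10.77 and 10.43 in 3 arrays. Col15a1 was highest in adipose tissue, at 11.32, 11.80 and 12.17 (4.10 ± 0.15). The ovary and the kidney showed the same opposition, since both genes' probesets were called there, Col18a1 higher and Col15a1 lower. Over the 31 organs the 2 chains correlated at r = 0.46, and the 2 probesets of each gene at r = 0.99 for Col15a1 and 0.94 for Col18a1.

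Type VI collagen forms beaded filaments around cells, and its 3 classical chains were highest in the uterus. Col6a1 was at 13.18, 13.74, 13.42, 13.74 and 13.57 in the 5 uteri (4.16 ± 0.18 above the other organs). Col6a3 was at 13.63, 13.79, 13.71, 13.84 and 13.82 (4.38 ± 0.21). Col6a2 was at 12.87, 13.54, 13.53, 13.65 and 13.59 (4.74 ± 0.26). All 3 were lowest in the brain, where Col6a3 lay at 3.31, 4.46 and 6.46, so the brain and uterus arrays were far apart. Col6a1 correlated with Col6a2 at r = 0.97 and with Col6a3 at r = 0.95.

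The newer type VI chains had ranges of their own. Col6a5 was highest in the lung, at 9.15, 10.32 and 10.99 (4.41 ± 0.22), with spleen, stomach and caecum means of 10.04, 9.83 and 9.68. It was called higher in each part of the gut from stomach to colon, with a mean of 8.42 in the colon, and averaged 3.99 in skin and 3.47 in soleus. Col6a6 was highest in the lung too, at 7.04, 7.25 and 8.01 (3.39 ± 0.15), and no other organ mean passed the threshold. Col6a5 and Col6a6 correlated at r = -0.12 over organs and Col6a5 and Col6a1 at r = 0.34, against the 0.97 and 0.95 of the classical chains.

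Of the anchoring and network chains, Col7a1 and Col8a1 passed the threshold in 1 and 2 organs and Col8a2 in 13. Col7a1, which forms the anchoring fibrils that hold epidermis to dermis, lay at 6.88, 8.42 and 8.89 in skin (4.69 ± 0.17), and was above the threshold in the mean of no other organ. Col8a1 and Col8a2, the chains of the hexagonal network under corneal and vascular endothelium, did not follow each other (r = 0.22). Col8a1 was highest in the thyroid, at 8.12, 8.98 and 10.22 (4.43 ± 0.20), and Col8a2 in the bladder, at 8.54, 9.32 and 10.41 (3.28 ± 0.23). Col10a1, the chain of hypertrophic cartilage, was at or near the lower end in nearly every array, but thyroid females 1 and 5 reached 8.08 and 8.68, where the other 8 thyroids lay between 2.04 and 3.61. Col26a1 was expressed in the testes alone, at 6.81, 6.15, 6.36 and 7.76 in 4 arrays (4.57 ± 0.12), and its mean there fell below the threshold when male 4 was left out.

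Fibril-associated chains differed in reach, with Col14a1 above the threshold in 20 organs, Col12a1 in 19, Col16a1 in 10, and Col22a1 and Col9a3 in 2 each. Col12a1 and Col14a1, which coat fibres in skin, tendon and muscle sheaths, correlated at r = 0.46 over organs. Col12a1 was highest in the bladder, at 8.57, 9.75 and 10.68 (3.01 ± 0.21), and Col14a1 in skin, at 10.72, 11.35 and 11.71 (4.17 ± 0.20). Col14a1 was near the lower end of the scale in the pituitary, at 1.87, 2.02 and 2.13. By the same probeset, 1376105_at, it was called higher in the liver, with a mean of 8.67 (1.48 ± 0.20). Of the 58 collagen probesets 3 were called higher in the liver, against 7.79% of all probesets. The other Col14a1 probeset, 1376170_at, was not called higher there. Col16a1 was highest in the testes, at 11.68, 11.49, 11.64 and 11.64 (5.29 ± 0.20), followed by the uterus with a mean of 9.37. Col22a1, a chain of the junction between muscle and tendon, was also highest in the testes, at 8.92, 9.18, 8.73 and 8.99 (6.25 ± 0.22), and was called higher in soleus muscle too, at 6.56, 7.11 and 7.89 (4.43 ± 0.16). Comp, a matrix protein of cartilage and tendon, was the probeset most like Col22a1 over organs (r = 0.92), with means of 8.74 in testes, 6.98 in soleus and 6.63 in gastrocnemius. This likeness was looked up after the values of Col22a1 had been seen.

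Type IX chains decorate cartilage fibres. Col9a3 was expressed in the thyroid, at 6.44, 7.51 and 8.55 (4.06 ± 0.15), and in the brain, at 5.56, 6.93 and 7.27 (3.30 ± 0.15), where the ranges of arrays overlapped. Col9a1 did not pass the threshold in any organ mean, but 7 pancreas arrays spread between 2.76 and 7.92 and the ranges of the sexes overlapped.

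The 4 transmembrane chains had few organs each. Col17a1, the collagen of hemidesmosomes that ties basal keratinocytes to the basement membrane, lay at 9.61, 11.22 and 11.72 in skin (7.07 ± 0.16 above the other organs), at 7.42, 8.37 and 9.04 in bladder (4.49 ± 0.17) and at 5.48, 6.82 and 7.00 in thymus (2.76 ± 0.17). Krt5 and Krt14, keratins of basal epithelial cells, averaged 13.4 and 14.1 in skin, 10.2 and 9.85 in thymus and 9.44 and 7.39 in bladder, and both were also above the threshold in epididymis and stomach, where Col17a1 was not. The part of basal epithelial cells in the Col17a1 values was not tested. The probeset most like Col17a1 was one of Dst (r = 0.88), which encodes a linker protein of the same junction. Col13a1, found at cell adhesions and the neuromuscular junction, was highest in the epididymis, at 12.08, 10.61 and 11.64 in 3 arrays (6.74 ± 0.31), and in the lung, at 9.80, 10.10 and 10.61 (5.40 ± 0.17). Col25a1, known in human brain as a component of amyloid plaques, was highest in the bladder, with a mean of 9.72 ± 0.14 (SD) over 8 arrays and a lowest array of 9.52 (5.85 ± 0.18), then in the brain, at 8.19, 8.83 and 9.66 (4.99 ± 0.16), and in the spleen, at 7.29, 8.29 and 9.27 (4.47 ± 0.18). The lowest bladder array lay within the range of the brain arrays, and the thyroid was also called, with a mean of 6.82. Col23a1 was expressed in the testes alone, at 7.91, 7.62, 7.76 and 8.09 (5.06 ± 0.11), while its next organ mean was 3.32 in the lung. In the testes 9 of 19 fibrillar and 6 of 11 basement membrane probesets were called lower, where 13.6% of all probesets were. Col16a1, Col22a1, Col23a1 and Col26a1 were called higher there, which made 6.9% of the collagen probesets, against 12.6% of all probesets.

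**Figure D4:**
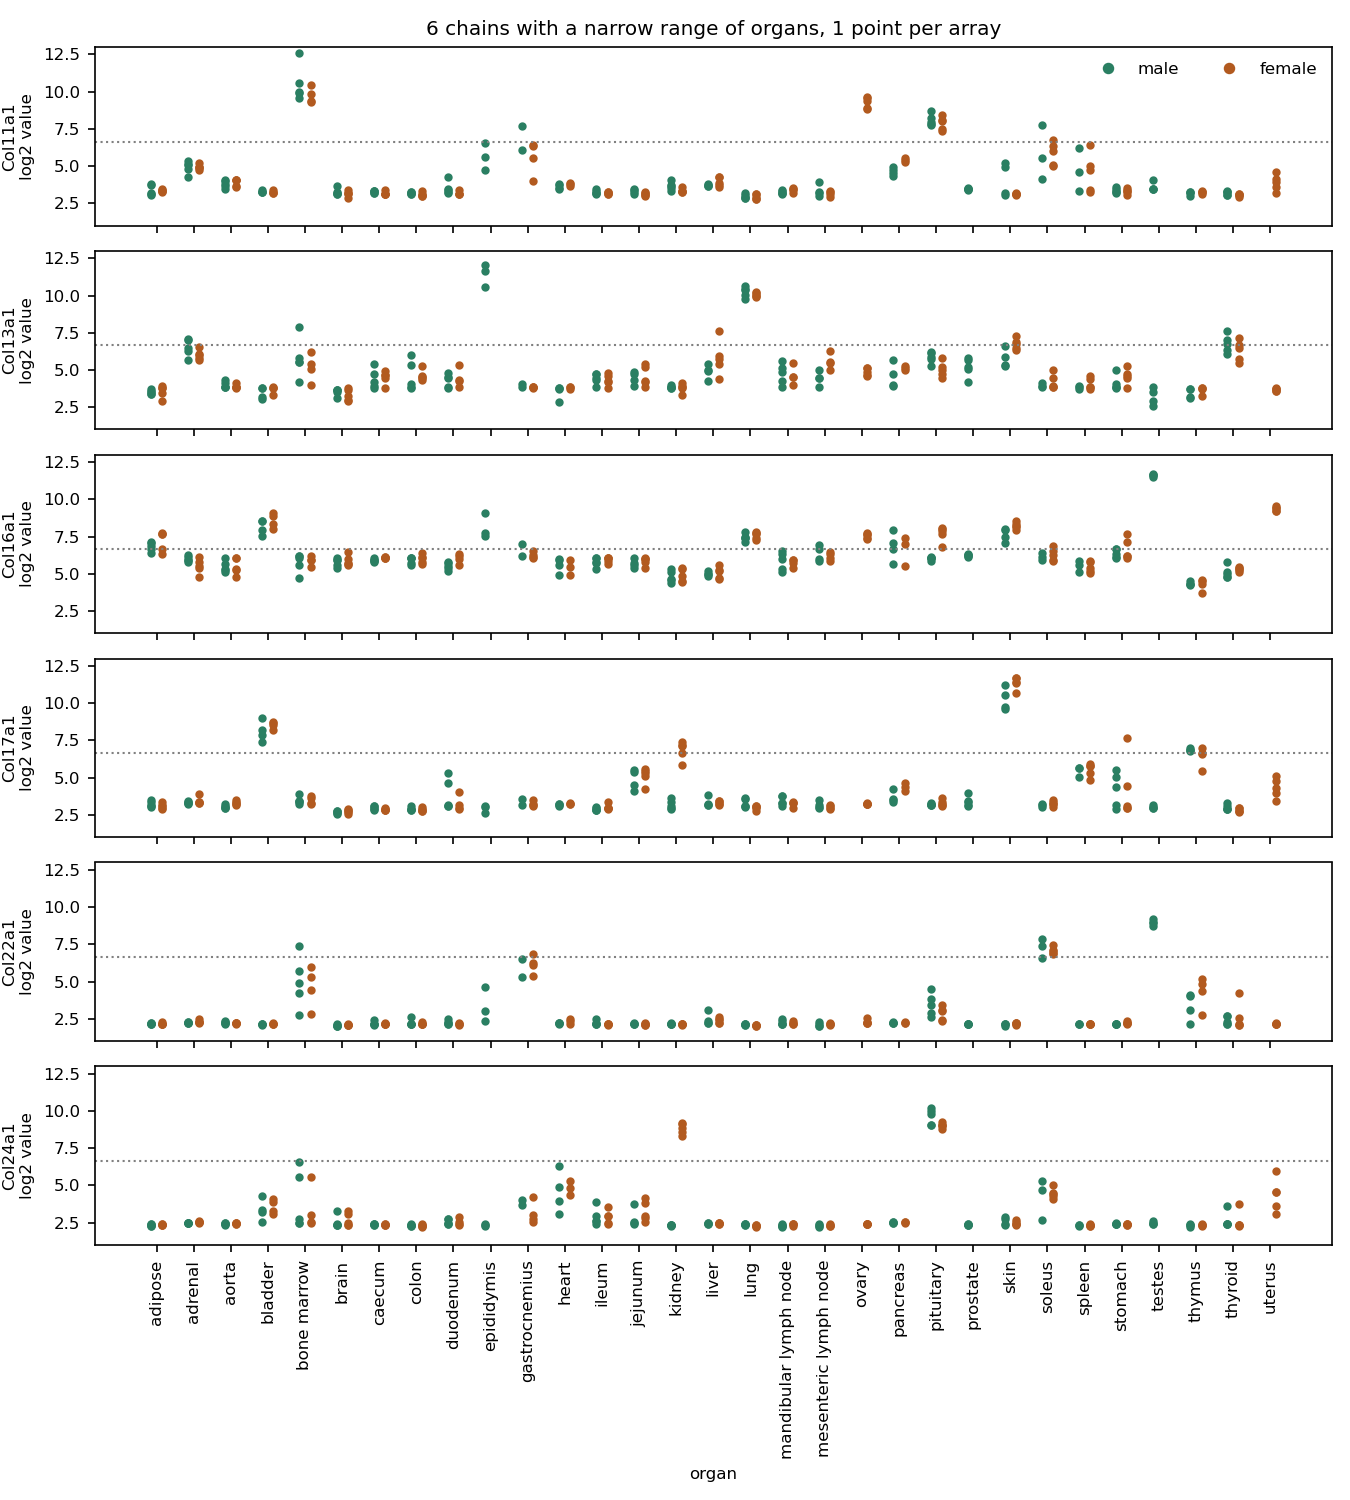
Log2 values of 6 chains in every array, males (green) left of females (orange) in each of 31 organs, with the expression threshold dotted. Col17a1 is high in skin, bladder and thymus of both sexes and in the kidney of females, and Col24a1 in the pituitary of both sexes and in the kidney of females, where every male array lies between 2.26 and 2.36.

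Pairs of organs were compared directly to show which chains set related organs apart, with a call at an adjusted p under 0.05, a difference above 1 and a mean above the threshold in at least 1 of the pair. In skin against aorta, 16 collagen probesets were higher (9.5% of all probesets) and 5 lower (6.79%). Col17a1 was higher by 7.64 ± 0.18 (10.83 in skin, 3.18 in aorta), Col7a1 by 4.02 ± 0.36 (8.02 in skin, 4.01 in aorta) and Col1a1 by 1.71 ± 0.17, whereas Col4a1 (11.06 in skin, 12.18 in aorta) and Col4a2 (9.89 in skin, 11.39 in aorta) were lower in skin. The probesets lower in skin were those of Col4a1, Col4a2 and Col6a5 and the Col4a6 probeset 1386827_at. Col4a5 and the brighter Col4a6 probeset, 1384276_at, were not called, with differences of -0.77 and -0.62. In aorta against bladder, 5 probesets were higher (6.37%) and 18 lower (10.3%). Col4a1, Col4a2, Col6a5 and both probesets of Col18a1 were higher in the aorta, with Col18a1 at 9.07 in aorta and 6.80 in bladder, and the lower ones were led by Col25a1, at 3.20 in aorta and 9.72 in bladder. Without the array of doubtful label these 2 comparisons had 21 and 22 calls, beside 21 and 23 with it. The smooth muscle markers, 6 genes on 8 probesets, had 4 probesets called higher in the aorta and 8 in the bladder against the other organs, and their part in this comparison was not tested.

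Lung against kidney gave 24 higher (8.68%) and 3 lower (7.72%). Col6a5 differed by 6.81 ± 0.18 (10.26 in lung, 3.45 in kidney), Col13a1 by 6.33 ± 0.10 (10.15 in lung, 3.82 in kidney) and Col4a6 by 4.11 ± 0.16, and both probesets of Col18a1 and that of Col8a2 were the lower ones. In uterus against ovary 20 were higher (8.56%) and 2 lower (5.7%). Those 2 were probesets of Col11a1, at 3.88 in uterus and 9.28 in ovary for the brighter one, and the higher ones were led by Col6a5 (8.69 in uterus, 3.40 in ovary) and Col14a1 (9.91 in uterus, 4.70 in ovary). Pituitary against brain had 12 higher (9.47%) and 2 lower (10.3%). Col24a1 differed by 6.71 ± 0.18 and Col11a1 by 4.79, while Col25a1 fell by 3.51 and Col9a3 by 2.53 in the pituitary. In soleus against gastrocnemius only Col22a1 was called (1.47% of all probesets were higher), with means of 7.19 in soleus and 6.01 in gastrocnemius and a limma adjusted p of 0.0266. That call was lost with the replicate block and when any of females 1, 2 or 5 was left out.

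In the fits by organ, the called differences between males and females were few, and with the expression threshold all ran the same way. Without it, Col6a3 and Col8a2 were also called in the pituitary, Col6a3 higher in females and Col8a2 higher in males. A probeset was called sexually dimorphic (SDE) in an organ when 1 sex or both had a mean above the threshold, the means differed by more than 1 and the adjusted p was under 0.05. Of the 58 collagen probesets 6 (10.3%) were SDE in at least 1 of 26 organs, against 7% of all probesets, and all 6 were higher in females. The kidney held 4 of them, where 0.796% of all probesets were SDE and higher in females, the pituitary held 1 (0.567%) and the skin held 1 (0.0483%). By the methods' t-test, and also with the replicate block, Col6a6 in the kidney and Col7a1 in the skin were not called. Col5a1, Col17a1 and Col24a1 in the kidney and Col16a1 in the pituitary stayed. In the other 23 organs limma called 0 of 1334 pairs of probeset and organ, and the methods' t-test called 0, while 110 pairs had an unadjusted p under 0.05. The share of all probesets under that unadjusted p was not counted, so the 110 cannot be read as more or fewer than on the whole array. Of all probesets, limma called 2.78% in the duodenum, 0.886% in the adrenal, 0.825% in the liver and at most 0.197% (adipose tissue) in the rest. It called 0 in aorta, heart and bone marrow, which hold the arrays of doubtful label. With so few calls of any kind, 0 collagen calls in most of these organs cannot show that collagens lack sex differences there. In these fits by organ no basement membrane chain was SDE. However, 1 fit over all groups, sharing 1 spread, called both probesets of Col15a1 in the mandibular lymph node and 1 of Col4a6 in the stomach. It also called both probesets of Col1a1 and of Col1a2 in the mesenteric lymph node, Col11a2 in bone marrow and Col6a6 in pancreas.

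Col24a1, a minor fibrillar chain known from bone, was expressed in the female kidney and lay near the lower end of the scale in the male kidney. Its values were 2.36, 2.32, 2.35, 2.36 and 2.26 in 5 male kidneys, against 9.11, 8.62, 9.22, 8.89 and 8.31 in 5 female kidneys. No male array came near a female array. The difference was -6.50 ± 0.16 (male minus female, SE, limma adjusted p = 5.68e-08). In the pituitary, its other high organ, males averaged 9.63 ± 0.53 and females 9.03 ± 0.18 (SD, n = 5 each, limma adjusted p = 0.187). The gene spans 236872583 to 237129768 on chromosome 2 (GRCr8).

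Col17a1, on chromosome 1 from 256472648 to 256518857, was the second. Its values were 3.62, 2.91, 2.97, 3.08 and 3.36 in male kidneys, against 7.40, 7.17, 6.64, 5.88 and 7.14 in female kidneys. The groups did not overlap, and the difference was -3.66 ± 0.29 (limma adjusted p = 0.000163). In skin, where Col17a1 was highest, the sexes averaged 10.3 in males and 11.4 in females and the adjusted p was 0.29. Keratinocyte markers were near the lower end in kidneys of both sexes: the mean level of the 4 measured genes ranged over 3.46 to 3.63 in males and 3.31 to 3.59 in females.

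Col5a1 gave a call in 1 of its 2 probesets. The probeset 1369955_at had 4.08, 5.22, 5.05, 4.91 and 4.62 in male kidneys, against 6.75, 6.99, 7.07, 6.98 and 7.16 in female kidneys, a difference of -2.21 ± 0.20 (limma adjusted p = 0.00036). The probeset 1376099_at averaged 6.54 in male and 6.52 in female kidneys, a difference of 0.03 ± 0.23 (adjusted p = 0.95). Over organs the 2 probesets followed each other at r = 0.97, so the sex difference of Col5a1 in kidney rests on 1 probeset and is uncertain for the gene. Col6a6 had 4.26, 5.09, 6.23, 6.39 and 5.53 in male kidneys, against 6.80, 7.14, 7.09, 6.47 and 7.26 in female kidneys. The highest male array was only just below the lowest female array, and the difference was -1.45 ± 0.39 (adjusted p = 0.0449). The call was lost when any of 8 of the 10 arrays was left out, with adjusted p-values from 0.0517 to 0.102, and it stayed without male 3 or male 4. It was also lost by the methods' t-test (0.0717) and with the replicate block (0.0989).

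Among the marker lists, endothelial markers moved with sex in the kidney: the mean level of the 5 measured genes ranged over 7.86 to 8.32 in males and 8.41 to 8.91 in females, without overlap, and 1 of their 6 probesets was SDE. Podocyte and glomerular markers ranged over 7.83 to 8.33 in males and 8.10 to 8.66 in females, and fibroblast markers over 5.89 to 6.57 in males and 6.14 to 6.78 in females. Their part in the kidney differences was not tested. Over all 58 collagen probesets the median difference in the kidney was -0.01.

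In the pituitary Col16a1 (chromosome 5, 147672559 to 147727007) had 6.08, 6.06, 5.83, 6.13 and 6.08 in males, against 8.01, 7.69, 6.77, 7.85 and 8.05 in females, a difference of -1.64 ± 0.23 (limma adjusted p = 0.00392). All female arrays were above all male arrays. Another 5 pituitary probesets passed the adjusted p without the size or level that SDE asks. Col6a3 averaged 4.10 in males and 5.70 in females, Col4a6 averaged 5.68 in males and 6.50 in females, and Col4a5 averaged 8.99 in males and 9.44 in females. Col6a2, at 6.64 in males and 6.08 in females, and Col8a2, at 4.92 in males and 3.89 in females, ran the other way. The collagen folding and processing list moved with sex there too, its 18 measured genes having a mean level of 6.66 to 6.73 in males and 6.80 to 7.23 in females, and smooth muscle markers had 4.94 to 5.17 in males and 5.27 to 6.02 in females. Other basement membrane components ran the other way, with 6.57 to 6.92 in males and 6.25 to 6.33 in females. What part these had in the Col16a1 difference was not tested.

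In skin Col7a1 had 7.62, 7.42, 7.44 and 6.88 in 4 males, against 8.42, 8.52, 8.83, 8.89 and 8.87 in 5 females, a difference of -1.36 ± 0.17 (limma adjusted p = 0.0414). The groups did not overlap, but the call was lost when male 4 or any of females 2 to 5 was left out, with adjusted p-values from 0.0719 to 0.126. It was also lost by the methods' t-test (0.117) and with the replicate block (0.169). Keratinocyte markers were at 13.3 to 13.7 in males and 13.6 to 14.1 in females. The collagen-degrading enzymes and inhibitors (10 genes) had a mean level of 7.02 to 7.59 in males and 7.64 to 7.81 in females, without overlap. The part of either list in the Col7a1 difference was not tested.

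**Figure D5:**
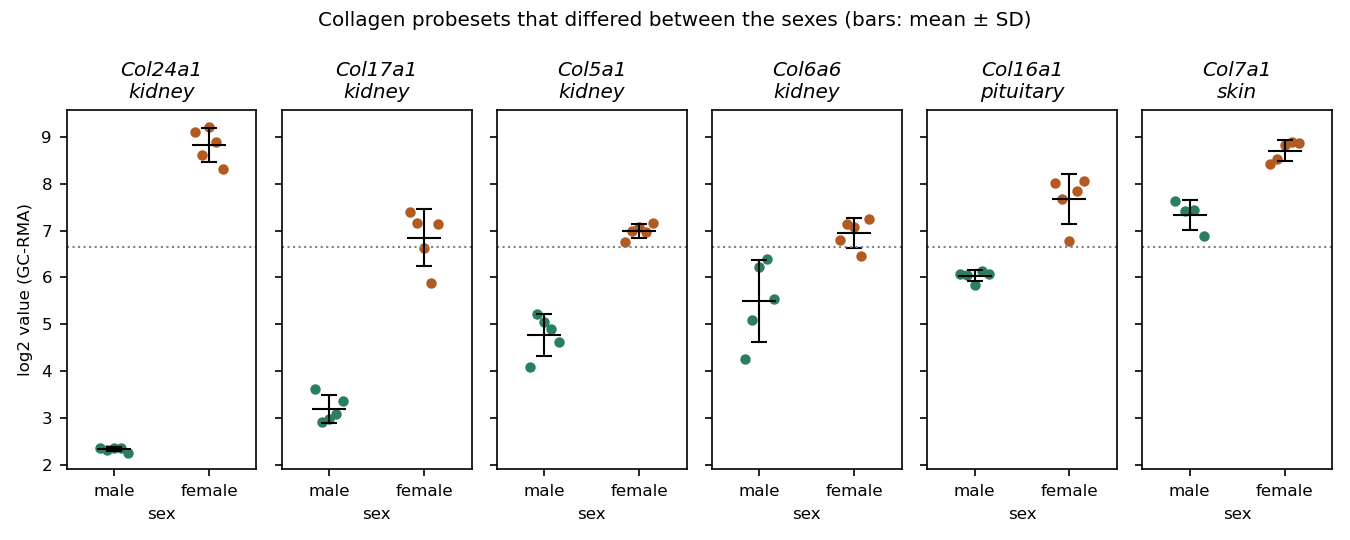
Log2 values of the 6 collagen probesets that were SDE, 1 panel each, 1 point per array, males (green) left of females (orange), with mean ± SD and the expression threshold dotted. In each panel all female arrays lie above all male arrays, by the widest margin for Col24a1 in the kidney (2.26 to 2.36 in males, 8.31 to 9.22 in females).

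The machinery that makes, anchors and removes collagen was followed in 4 lists. Of 26 probesets for collagen folding and processing, which includes prolyl and lysyl hydroxylases, the collagen chaperone Serpinh1 and the crosslinking enzyme Lox, 16 were called higher in the uterus, 15 in adipose tissue, 14 in the ovary and 10 each in skin and lung, and 11 were called lower in the brain and 9 each in testes and thymus. In these organs 6.86% (ovary) to 8.52% (lung) of all probesets were called higher, and 8.35% were called lower in the brain, 13.6% in the testes and 5.39% in the thymus. Serpinh1 averaged 12.9 in the uterus, 12.2 in the ovary and 12.1 in adipose tissue, and was lowest among the organs listed in the testes, at 6.04. Fkbp10, another collagen chaperone, was among the probesets most like Col1a1 (r = 0.84), after Cthrc1 (r = 0.88). Of 9 probesets for collagen receptors, 7 were called higher in the bladder and 6 in the lung, and 4 were called lower in each of brain, liver, testes and thymus, beside 7.56% of all probesets called higher in the bladder and 5.93% called lower in the liver. The receptor subunit Itga1 averaged 11.8 in bladder and 11.7 in uterus. Of 17 probesets for collagen-degrading enzymes and inhibitors, 10 were called higher in adipose tissue and 8 in bladder, and 8 were called lower in liver and in thymus (7.28%, 7.56%, 5.93% and 5.39% of all probesets, in that order of organs). Mmp2, a gelatinase, averaged 11.5 in both uterus and skin, and Mmp13, an interstitial collagenase, was called higher in bone marrow (9.50) and ovary (8.01), which were also the 2 highest organs of Col11a1. Of 18 probesets for other basement membrane components such as laminins, nidogens and perlecan, 12 were called higher in the bladder, 11 in the uterus and 9 each in adipose tissue, skin and lung, and 9 were called lower in bone marrow, where 7.12% of all probesets were.

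Cell type markers were read beside these counts. The 8 smooth muscle probesets were all called higher in bladder and uterus, 4 of 8 fibroblast probesets were called higher in each of skin, bladder and uterus, 5 of 6 endothelial probesets in each of aorta and lung, and 4 of 4 keratinocyte probesets in skin. Of all probesets, 6.77% (aorta) to 8.52% (lung) were called higher in these 5 organs. In the brain 6 of 8 smooth muscle and 3 of 6 endothelial probesets were called lower, and in the liver 6 of 8 and 0 of 6, beside 8.35% and 5.93% of all probesets called lower in brain and liver. The part of these cell types in the collagen counts was not tested.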

How the data were processed

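RNA of single organs was hybridised to RAE230_2 arrays. The authors summarised each probeset with GC-RMA (GCRMA in Bioconductor) and deposited the values on a log2 scale, and these were used as deposited. Its version is not given in the sources used, nor which arrays were normalized together. Symbols came from the platform annotation (20826 probesets with 1 symbol, 436 with several, 9780 with none). Tests used limma 3.58.1 in R 4.3.3 with Benjamini-Hochberg adjustment over all 31042 probesets, and were tested on simulated data. Male minus female was fitted for each of 26 organs. Each organ against the unweighted mean of the other 30 was fitted once over 57 groups and 256 arrays, and 6 organ pairs on their own arrays. A probeset was called lower in an organ at a difference below -1 with the mean of the other organs above 6.65. A gene was represented by its probeset with the highest mean over organs. All 6 SDE members were named, other genes with their highest organ, and by likeness the most correlated probesets outside the collagens. The rule for members reads symbols alone, but the collagens and the other gene lists were chosen as a subject with earlier results of these data known.

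The number of arrays, 2 to 5 in a group, limits precision. The expression threshold was a log2 value of 6.65, as in the study's methods. Organs of 1 animal share that animal, and the replicate number was tried as a block. No 2 arrays held identical values, and the highest correlation between 2 arrays was 0.997. Whether same-numbered males and females share more than a number could not be settled. In 0 of 26 organs did every such pair deviate together (correlation above 0.1), but this rule is strict and cannot exclude a shared batch. The mean correlation of these pairs was above 0 in 14 of the 26 organs, and was 0.25 in the aorta. In the supplement 4 organs (adrenal, bone marrow, pituitary, ovary) are numbered in a separate series, so their animals could not be matched to those of the other organs. Rat gene positions and promoter windows came from RefSeq (GRCr8), where all 41 genes had a position and 32 a window. Python 3.11.15, numpy 2.4.6, pandas 2.3.3, scipy 1.17.1 and matplotlib 3.10.9 were used. Protein sequences and probe intensities were not analysed here.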

Additional observations from a re-analysis of the deposited data

Results flagged for a closer look

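In 4 of 67 groups of 4 to 5 arrays 1 array stood far from the others by Dixon's criterion, which chance alone meets in about 1 of 20 groups. Col16a1 in the pituitary had male replicate 3 at 5.83, with the other males between 6.06 and 6.13, and female replicate 3 at 6.77, with the other females between 7.69 and 8.05. Col4a2 in adipose tissue had male replicate 2 at 12.4, with the other males between 11.6 and 11.7. Col6a2 in the uterus had replicate 1 at 12.9, with the other uteri between 13.5 and 13.7.

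The sex difference of each SDE collagen probeset was also set against the mean sex difference of the other 25 organs, and limma's test of that difference flagged them (male minus female, then minus the other organs). The probesets were chosen for a sex difference in the same organ, so these values are a description and add no independent support. In the kidney this second difference was -6.53 for Col24a1, -3.61 for Col17a1, -1.99 for Col5a1 and -1.67 for Col6a6. In the pituitary it was -1.55 for Col16a1, and in the skin -1.29 for Col7a1.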

How the results depend on the processing

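No value reversed. The count of SDE collagen probesets was 6 in the fits by organ and 14 in 1 fit over all groups, which called 2 in skin and made 9 calls in organs other than kidney, pituitary and skin, 3 of them of basement membrane probesets (Col15a1, Col4a6). Skin had 0 calls by the methods' t-test and with the replicate block, and both also lost Col6a6 in the kidney. What stayed in both was Col5a1, Col17a1 and Col24a1 in the kidney and Col16a1 in the pituitary, fewer than in the main fits. Without an expression threshold the pituitary had 3, of which Col8a2 was higher in males. At a 1.5-fold threshold the other organs had 3. Leaving out 1 replicate gave 0 to 1 in skin, 0 to 1 calls in the other organs and 0 to 1 between soleus and gastrocnemius. The replicate block gave 0 for that pair, was not run for pituitary against brain and uterus against ovary, and changed no other count by over 1.5 times.

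Without an expression threshold, probesets called lower numbered 35 in thymus, 33 in brain, 30 in testes and 22 in kidney. At 1.5-fold, the stomach had 21 called higher. With 1 probeset per gene, fewer probesets are counted: 17 were higher in uterus, 15 in adipose, 15 in aorta, 10 in soleus, 10 in gastrocnemius and 5 in bone marrow, and 9 lower in kidney. Shares over all probesets were not counted under these settings. In the main fit, 14 of 58 members were lower in kidney (2.34% of all probesets). There, 13 were higher in stomach (5.57%), 17 in soleus (8.56%) and 17 in gastrocnemius (8.27%). Leaving out the 4 arrays of doubtful label moved no count by over 1.5 times, and for the organ pairs this was chosen after seeing the data. The Col7a1 sex difference against the other organs was -1.14 (limma adjusted p = 0.0538) without male replicate 5. Signal near the lower end of the scale limits what low chains can show.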
